A study of Mus musculus with 6 samples.

Results

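Described here were 114 mouse microRNAs (miRNAs) with names numbered 1000 or above that were detected in tissue macrophages, among 1247 mouse miRNAs read on each array. They were chosen by number and by the scanner software's detection flag: a miRNA entered when 1 or more of 3 macrophage populations had both of its arrays flagged. Of 449 miRNAs numbered 1000 or above, 132 met that condition. A further 18 of those were set aside by number, in part because earlier results of the same arrays had shown them as bright or strongly changed, so the 114 are what remained and not a random sample of the high numbers. The other 317 did not pass, 298 of them flagged on no array at all.

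The arrays compared microglia, colon macrophages and liver macrophages (Kupffer cells) of untreated wild-type C57BL6/J mice, to find miRNAs enriched in microglia of the healthy adult brain. All mice were male and kept under specific-pathogen-free conditions. The sample labels give their age as 6 weeks, the design text as 6 to 8 weeks. Microglia, the resident macrophages of the brain, were sorted as CD45-intermediate CD11b+ F4/80+ Ly6C- Ly6G- cells. Colon macrophages were CD45+ CD11b+ CD11c+ CD64+ Ly6C-, and liver macrophages were CD45+ CD11b+ F4/80+ CD64+ MHCII+. Each group had 2 arrays, each a separate pool of 4 to 6 mice, and 100 ng of total RNA was labelled per array. Pools and technical error cannot be told apart in the spread between replicates, and a p-value here covers that spread only.

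A miRNA is cut by Drosha with its partner DGCR8, and then by Dicer, from a hairpin whose 2 arms can each yield a mature strand, named 5p and 3p. The mature strand guides Argonaute to messenger RNAs, mainly through pairing of its seed, bases 2 to 8, and lowers their translation and stability. Names were numbered in order of discovery, so high numbers mostly stand for hairpins added late, from deep sequencing. Many of these are less conserved and less abundant than the early entries. Some lie in repeats, in spliced introns that skip Drosha (mirtrons) or in small nucleolar RNAs, whose longer transcripts an array probe may also read.

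Mature sequences from RefSeq (GRCm38.p6) were used for 85 of the 114. Shown first are members that passed the test against other macrophages, higher or lower in microglia, with the seed in capitals.
miR-5119: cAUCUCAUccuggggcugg
miR-1839-5p: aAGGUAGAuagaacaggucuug
miR-3069-3p: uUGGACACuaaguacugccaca
miR-3068-3p: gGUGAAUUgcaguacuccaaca
miR-5622-3p: cUUAGCUGgguagugguggugc
miR-1306-3p: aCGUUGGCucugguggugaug
miR-5121: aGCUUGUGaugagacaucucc
miR-1224-5p: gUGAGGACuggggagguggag
miR-3077-5p: cUGCGGACgggugggcgggcaggcc
miR-3081-5p: gACUGGAGcuuggagcggugagc
miR-6538: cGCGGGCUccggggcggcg
The first 4 were higher in microglia and were added to this set after their values were seen. The others were among the largest decreases. No 2 of the 11 share a seed.

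Next are members whose signal was seen in other macrophages and not on either microglia array, again with the seed in capitals.
miR-6401: uUACACUCcaguggugucgggu
miR-5132-3p: cUGAUGUUccccaucccgcag
miR-3091-5p: cAUGGGUCugguugggcccgc
miR-3058-3p: uUCCUGUCagccgugggugcc
miR-6238: uUAUUAGUcaguggaggaaaug
miR-6236: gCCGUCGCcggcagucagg
miR-3102-3p: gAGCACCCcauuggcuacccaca
miR-3089-5p: uGAGUUCAgggacagcgugucu
The last 3 were not detected on either colon array either.

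A 9-base stretch, capitals below, is common to 4 members.
miR-3473a: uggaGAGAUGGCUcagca
miR-3473b: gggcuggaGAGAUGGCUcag
miR-3473e: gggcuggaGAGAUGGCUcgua
miR-5128: caauuggggcuggcGAGAUGGCU
The stretch was read from these 4 members, so their own match was given in advance. Of the 1679 mature mouse entries used from the RefSeq table, no others hold these letters (4 in all, 0.238%). The letters resemble the start of the rodent B2 repeat, a short interspersed element with many genomic copies. A probe for one of them may also read another, so their signals cannot be taken as independent; this was not tested. miR-3473b and miR-3473e also share the seed GGCUGGA.

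The other shared seed, UGGGAAG, joins miR-6368 and miR-6405, with the seed in capitals.
miR-6368: cUGGGAAGcaguggaggggag
miR-6405: gUGGGAAGcagugggaagcagug
miR-6368 was bright on all 6 arrays, and miR-6405 was detected on 4 of 6.

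Finally, 3 members carry a run of alternating U and G; the letters UGUGUG are in capitals.
miR-1187: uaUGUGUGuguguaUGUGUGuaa
miR-3082-5p: gacagagUGUGUGugucugugu
miR-6348: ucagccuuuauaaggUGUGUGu
UGUGUG, searched on the mature strand, was found in 3.53% of the 85 members with a sequence and in 1.67% of the 1679 entries used.

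Levels are log2 signals, scaled so that the 75th percentile of 248 miRNAs found on all 6 arrays was equal between arrays. Undetected values were set to a floor of 1.64 on that scale. Per array 300 to 403 miRNAs of all numbers were detected (24.1% to 32.3%), and their median signal was 10.5 to 11.3 times its error. Replicates correlated at r = 0.968 in microglia, 0.988 in colon and 0.963 in liver macrophages, across miRNAs, which are not independent replicates. The myeloid markers miR-142-3p and miR-223-3p were detected on every array. Markers of other cells were present too: the summed log2 level of 10 epithelial markers was 10.14 on microglia replicate 1 and 5.97 on replicate 2, 12.48 and 11.99 in colon replicates 1 and 2, and 7.81 and 8.94 in those of liver. The 2 endothelial markers summed to 12.02 and 11.36 in liver, 7.95 and 7.78 in colon, and 5.15 on microglia replicate 1, with neither detected on replicate 2. Hepatocyte miR-122-5p stood at 11.07 and 11.82 in liver and at 8.11 and 7.30 in microglia, and was not detected in colon. The 4 smooth muscle and fibroblast markers summed to 9.02 and 8.47 in colon, 7.67 and 7.06 in liver and 5.00 on microglia replicate 1, with none detected on replicate 2. The 3 neuronal markers, all detected on both microglia arrays, summed there to 5.73 and 5.75, against 3.26 to 4.79 elsewhere.

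The members were seen in fewer microglia arrays than arrays of the other macrophages. Microglia replicates 1 and 2 had 72 and 76 of the 114 flagged as detected, colon macrophages 108 and 95, and liver macrophages 111 in each replicate. Over miRNAs of all numbers, microglia arrays also detected the fewest: 300 and 330, against 403 and 352 in colon and 386 and 389 in liver. Of 282 detected miRNAs numbered under 1000, 200 were detected on both microglia arrays, 240 on both colon arrays and 234 on both liver arrays. Both arrays of all 3 groups detected 68 members (59.6%), close to the 60.3% (170 of 282) among detected miRNAs numbered under 1000. Colon and liver without microglia accounted for 23 members (20.2%, against 13.1% of the lower numbers) and liver alone for 17 (14.9%, against 6.03%). These shares are descriptions, since detection chose the members. miR-1843a-5p was the only member detected on both arrays of microglia and of no other group. It read 3.37 and 3.30 in microglia and 3.05 on liver replicate 2, and was not detected on the other 3 arrays.

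**Figure D1:**
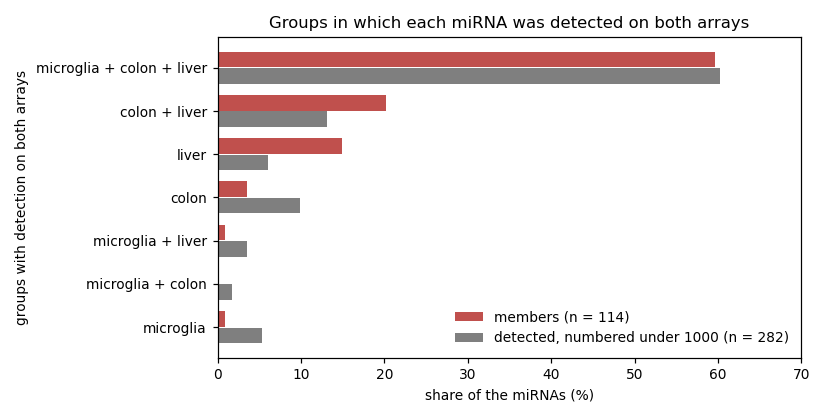
Share of miRNAs (x axis, percent) by the groups in which both arrays detected them (y axis), for the 114 members (red) and the 282 detected miRNAs numbered under 1000 (grey). Members detected in all groups make up 59.6%, and the bars for colon with liver and for liver alone are longer for members than for lower numbers.

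At the edge of the rule, 22 members were detected on both arrays of 1 group only, with detected levels from 2.56 to 5.87 (median 3.93). The 19 miRNAs just outside, flagged on some array but never on both of a group, had detected levels from 2.46 to 6.85 (median 2.88). By number, 30 members lie in the 1000s, 2 in the 2000s, 33 in the 3000s, 23 in the 5000s and 26 in the 6000s.

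Among members detected on both arrays of a group, mean log2 levels ran from 2.88 to 11.52 in microglia (median 6.07, n = 70 members), from 2.85 to 12.13 in colon (median 5.79, n = 95) and from 2.45 to 13.15 in liver macrophages (median 5.74, n = 109). The median SD between replicates was 0.23, 0.18 and 0.37. Brightness also depends on the probe, so an order of levels between miRNAs describes signals and not molecules.

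The brightest member by mean was miR-1224-5p, a mirtron product whose hairpin lies in Vwa5b2. It read 10.40 and 10.41 in microglia, 12.15 and 12.11 in colon, and 13.41 and 12.51 in liver macrophages. Both microglia arrays lay below all others. miR-3960, known in mouse osteoblasts for promoting bone formation together with miR-2861, read 10.71 and 10.58, 11.63 and 11.67, and 12.79 and 13.51 in the same order. Its groups did not overlap, with microglia lowest and liver highest. miR-3968 read 11.36 and 11.67 in microglia, 10.62 and 11.40 in colon and 11.07 and 11.78 in liver. Here the groups overlapped.

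miR-3473b read 10.42 and 9.80 in microglia, 11.93 and 10.81 in colon, and 11.03 and 10.77 in liver. miR-5622-3p, from a hairpin in Tpx2, a spindle assembly gene, read 8.39 and 7.92, 11.16 and 10.70, and 10.67 and 10.95. Microglia stood apart on it by more than the whole spread of the other 4 arrays. miR-5128 read 9.76 and 7.82, 11.63 and 9.57, and 10.74 and 10.08, and its replicates differed by 1.94 within microglia and by 2.06 within colon.

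**Figure D2:**
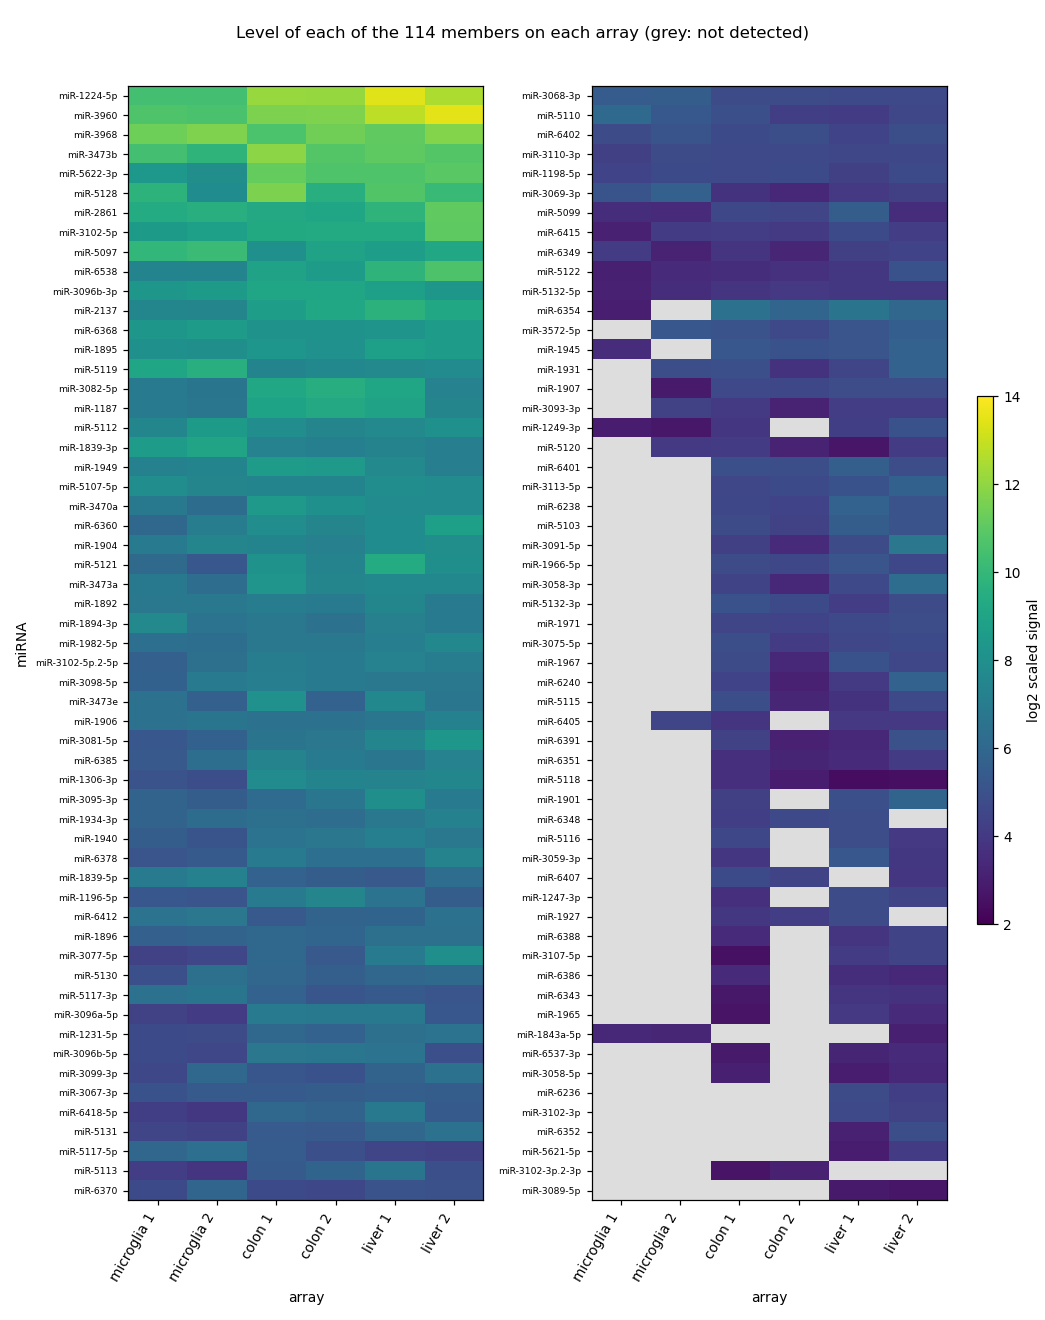
Log2 scaled signal (colour) of each of the 114 members (rows, ordered by the number of arrays that detected them and then by mean) on each of the 6 arrays (columns); grey marks no detection. The left panel shows the brighter of the members detected on all arrays. The right panel shows the remaining such members and then those detected on fewer arrays, among them the members with no microglia signal.

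Against colon macrophages, members measured on all 4 arrays were more often lower than higher in microglia under the scaling used. Of 68, 19 passed as lower (27.9%) and 7 as higher (10.3%), by limma with Benjamini-Hochberg adjustment over all 379 miRNAs tested and a threshold of 0.05. Among all 253 miRNAs measured in both groups, 19.4% passed as lower and 17.8% as higher. The median change of the 68 was -0.60 on the log2 scale, with 47 below 0 and 21 above. All 253 had a median of -0.02, and the 175 numbered under 1000 one of 0.21. The split depended on the scaling. It was 11 higher and 5 lower after median scaling, 9 and 7 after quantile normalization, 10 and 6 in the authors' values, 1 and 18 on unscaled signals, and 1 and 28 when spike-in controls set the scale. The median of all miRNAs tested, -0.43 under the scaling used, was -0.05, 0.02, -0.02, -0.76 and -1.02 under these. The median of the 68 members moved with it, to -0.22 (37 below 0, 31 above), -0.04 (34 and 34), -0.03 (34 and 34), -0.94 (53 and 15) and -1.20 (57 and 11) in the same order. That of the 175 numbered under 1000 moved too, to 0.60, 0.59, 0.665, -0.12 and -0.39. It stayed above the members' median under every scaling. The count of 26 also depended on single arrays: leaving out microglia replicate 1 gave 10 and replicate 2 gave 6, and leaving out colon replicate 1 gave 2 and replicate 2 gave 6.

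Against liver macrophages, 21 of 69 members measured in both groups were lower in microglia (30.4%) and 8 were higher (11.6%) by the same limma test over 382 miRNAs. The background among all 259 measured in both was 21.2% lower and 23.9% higher. The members' median change was -0.85, with 52 below 0 and 17 above, beside 0.06 for all 259 and 0.43 for the 180 numbered under 1000. Under median scaling 13 were higher and 16 lower, under quantile normalization 8 and 13, and in the authors' values 8 and 12. Without scaling 24 were lower and 0 higher (3 higher at an unadjusted p under 0.05), and with spike-in scaling 40 lower and 1 higher. The median of all tested, -0.60 under the scaling used, was -0.19, -0.16, -0.24, -0.82 and -1.15 in this order. That of the 69 members was -0.41 (43 below 0, 26 above), -0.48 (44 and 25), -0.48 (44 and 25), -1.22 (59 and 10) and -1.56 (60 and 9). The 180 numbered under 1000 had medians of 0.86, 0.90, 0.885, 0.06 and -0.29, each above that of the members. The count of 29 became 14 when microglia replicate 1 was left out and 18 for replicate 2, and 17 and 18 for colon replicates 1 and 2. Colon arrays enter because all 6 arrays share 1 estimate of the spread. The comparisons with colon and with liver share the microglia arrays, so they are not independent of each other.

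Under the scaling used, fewer members measured in both groups passed as higher in microglia than as lower. Against colon the order was reversed under median scaling, quantile normalization and in the authors' values. Of those higher, the one least tied to the processing was miR-5119, whose hairpin lies in Cdk12, which encodes a kinase of RNA polymerase II. It read 9.06 and 9.52 in microglia, 7.39 and 7.60 in colon and 7.64 and 7.77 in liver. Both microglia arrays lay above all others. The change was 1.79 ± 0.29 (SE) against colon (limma adjusted p = 0.00952) and 1.58 ± 0.29 against liver (adjusted p = 0.00908). The call against colon was kept under all 5 other scalings, the authors' values counted among them, but was lost without colon replicate 1 (adjusted p = 0.0631). That against liver was kept under 4 of the 5 and in all 6 fits with 1 array left out.

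Both arms of the miR-1839 hairpin, which lies in the long noncoding RNA 2900076A07Rik, were higher in microglia. miR-1839-3p read 8.62 and 9.02 in microglia, 7.30 and 7.16 in colon and 7.36 and 7.12 in liver (1.59 ± 0.28 against colon, adjusted p = 0.0122; 1.58 ± 0.28 against liver, adjusted p = 0.00863; limma). miR-1839-5p read 6.94 and 7.28, 5.79 and 5.53, and 5.34 and 6.27. Its changes were 1.45 ± 0.40 (adjusted p = 0.036) and 1.30 ± 0.40 (adjusted p = 0.0403). On both arms the microglia arrays lay above the other 4. The 5p call was less firm. It was lost against colon when any of the 4 arrays compared was left out (limma adjusted p 0.138 to 0.186), and against liver in 5 of 6 such fits (0.0814 to 0.180). The 3p call against colon was lost without either colon array (0.0631 and 0.0652).

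miR-3069-3p lies in the noncoding gene Snhg10 and within the span of the small Cajal body RNA gene Scarna13. Signal from the miRNA and from the small Cajal body RNA cannot be told apart here. miR-3069-3p read 5.11 and 5.68 in microglia. The colon arrays read 3.78 and 3.34 and the liver arrays 3.98 and 4.26, all below microglia. Its change against colon was 1.84 ± 0.34 (limma adjusted p = 0.0131), the largest increase against colon among members measured in both groups. Without microglia replicate 2 or either colon array it missed the threshold (0.0631 to 0.0846). Against liver it was 1.28 ± 0.34 (adjusted p = 0.0275), a call lost in each of the 6 fits with 1 array left out (0.0511 to 0.114). miR-3068-3p, from a hairpin in Alkbh1, a nucleic acid demethylase gene, read 5.49 and 5.54, 4.76 and 4.75, and 4.64 and 4.63. Its replicates lay close together in every group, and its changes were the smallest that passed as higher, 0.76 ± 0.24 (adjusted p = 0.0479) and 0.88 ± 0.24 (adjusted p = 0.0291). Against colon it missed the threshold without microglia replicate 2 or colon replicate 1 (0.0546 and 0.0914).

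Both arms of miR-5117 were detected on all arrays. The 5p arm read 5.96 and 6.37 in microglia, 5.51 and 4.92 in colon and 4.52 and 4.30 in liver, and was higher in microglia than in liver by 1.76 ± 0.33 (limma adjusted p = 0.0104; 0.0634 without microglia replicate 2). The 3p arm read 6.49 and 6.67, 5.78 and 5.23, and 5.40 and 5.15. It was higher by 1.07 ± 0.31 against colon (adjusted p = 0.0403) and by 1.30 ± 0.31 against liver (adjusted p = 0.0193). The first of these was lost in all 6 fits with 1 array left out (0.0520 to 0.136), and the second without any of the 4 arrays compared (0.0521 to 0.0842). miR-5097 read 9.93 and 10.17 in microglia against 8.03 and 8.93 in colon (1.57, adjusted p = 0.0313), and miR-5110 read 6.10 and 5.28 against 4.08 and 4.56 in liver (1.37, adjusted p = 0.0472). The first call was kept in 1 of 6 fits with 1 array left out and the second in 0 (adjusted p 0.0807 to 0.225). Apart from miR-5119 against colon, each call of a member measured in both groups as higher in microglia was lost under at least 1 of the 5 other scalings, with its direction kept.

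Under the scaling used, the largest decreases in microglia exceeded the largest increases. Taken relative to the median change of all miRNAs tested, the extremes among members measured in both groups were nearly alike. Against colon they were -2.35 (miR-5622-3p) and 2.27 (miR-3069-3p), and against liver -2.41 (miR-3077-5p) and 2.36 (miR-5117-5p). That median includes miRNAs set to the floor in a group, which these members were not. All miRNAs measured in both groups had a median change of -0.02 against colon and 0.06 against liver. Relative to these medians the largest decreases still exceeded the largest increases. miR-5622-3p, with the values given above, changed by -2.78 ± 0.32 (SE, log2) against colon (limma adjusted p = 0.003) and by -2.66 ± 0.32 against liver (adjusted p = 0.00292). miR-1306-3p, whose hairpin lies in the transcript unit of Dgcr8, the gene of Drosha's partner, read 5.09 and 4.90 in microglia, 7.78 and 7.40 in colon and 7.36 and 7.53 in liver. Its changes were -2.59 ± 0.27 (adjusted p = 0.00244) and -2.45 ± 0.27 (adjusted p = 0.00219). For both miRNAs every microglia array lay below every other array, and both calls were kept under all 5 other scalings and in all 6 fits with 1 array left out.

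For several members that fell against colon, the liver replicates lay far apart. miR-3082-5p, from a hairpin in the ubiquitin ligase gene Stub1, read 6.98 and 6.68 in microglia, 9.15 and 9.47 in colon, and 9.05 and 7.31 in liver. miR-1187, which like miR-3082-5p carries the UG run shown above, read 6.89 and 6.72, 8.97 and 9.23, and 8.94 and 7.45. Both were low in microglia, high in colon and split between the liver replicates by more than 1 log2 unit. Their changes against colon were -2.48 ± 0.60 and -2.30 ± 0.53 (limma adjusted p = 0.0278 and 0.0237). miR-6348, the third with that run, was not detected in microglia, read 4.21 and 4.64 in colon and 4.83 on liver replicate 1, and was not detected on liver replicate 2. 

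The same liver split was seen for the miR-3096 pair and miR-1196-5p. miR-3096a-5p read 4.38 and 4.12 in microglia, 6.91 and 6.87 in colon, and 6.85 and 5.28 in liver. miR-3096b-5p read 4.69 and 4.53, 6.77 and 6.70, and 6.57 and 4.94. miR-1196-5p read 5.28 and 5.15, 6.99 and 7.44, and 6.57 and 5.55. Their changes against colon were -2.64 ± 0.55, -2.13 ± 0.56 and -2.00 ± 0.42 (limma adjusted p = 0.0194, 0.0332 and 0.0197). Like those of miR-3082-5p and miR-1187, these calls were lost when any of the 4 arrays compared was left out (adjusted p 0.105 to 0.186 over the 5 miRNAs), and were kept under 2 of the 5 other scalings. miR-3096b-3p, the other arm of the second hairpin, read 8.33 and 8.52 in microglia, 9.05 and 9.11 in colon and 8.79 and 8.34 in liver, and passed in no comparison.

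**Figure D3:**
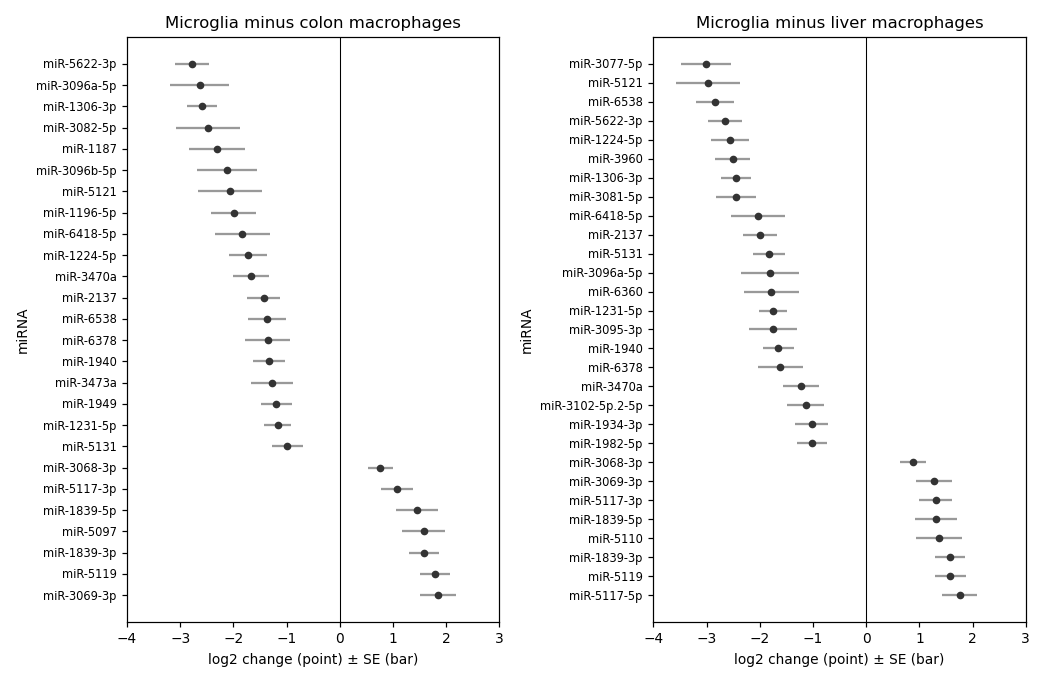
Log2 change in microglia against colon macrophages (left) and against liver macrophages (right) of each member measured on all 4 arrays that passed limma's test; points are changes and bars are standard errors. Left, 19 lie below 0 and 7 above; right, 21 below and 8 above.

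Against liver the largest decrease was that of miR-3077-5p, from a hairpin in Sap18, a subunit gene of a histone deacetylase complex. It read 4.32 and 4.56 in microglia, 6.05 and 5.33 in colon and 6.92 and 7.97 in liver, in 3 ranges that did not overlap. The change was -3.01 ± 0.46 (limma adjusted p = 0.00585), and it missed the threshold without either microglia array (0.0558 and 0.0731). miR-6538, from a hairpin in the ubiquitin ligase gene Rnf144a, read 7.41 on both microglia arrays, 8.93 and 8.63 in colon and 9.83 and 10.67 in liver. It fell by 2.84 ± 0.36 on the log2 scale against liver (adjusted p = 0.00356), kept under all 5 other scalings and all 6 fits with 1 array left out. It fell by 1.37 ± 0.36 against colon (adjusted p = 0.0333), lost without any of the 4 arrays compared (0.131 to 0.169).

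miR-5121 overlaps the small nucleolar RNA gene Snord33 inside Rpl13a, a ribosomal protein gene. It read 6.14 and 5.27 in microglia, 8.15 and 7.38 in colon and 9.36 and 7.99 in liver. Its changes were -2.06 ± 0.60 against colon (limma adjusted p = 0.0434) and -2.97 ± 0.60 against liver (adjusted p = 0.0131). The first was lost in all 6 fits with 1 array left out (0.0552 to 0.228) and the second in 5, all but that without liver replicate 2 (0.0553 to 0.108). Signal from the miRNA and from the small nucleolar RNA cannot be told apart here.

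miR-1224-5p and miR-3960, the brightest members, changed by -2.56 ± 0.36 and -2.51 ± 0.33 against liver (limma adjusted p = 0.00464 and 0.00371). The first missed the threshold without microglia replicate 1 (0.0521), and the second passed in every fit with 1 array left out. miR-1224-5p fell by 1.73 ± 0.36 against colon too (adjusted p = 0.0197), lost without any of the 4 arrays compared (0.104 to 0.130). miR-3081-5p, from a hairpin in Boc, a hedgehog co-receptor gene, read 5.26 and 5.72 in microglia, 6.61 and 6.75 in colon and 7.52 and 8.35 in liver. It fell by 2.44 ± 0.38 on the log2 scale against liver (adjusted p = 0.00587), and missed the threshold without microglia replicate 1 (0.0571). miR-2137, from a hairpin in Zfp185, read 7.49 and 7.44, 8.67 and 9.13, and 9.71 and 9.20. Its change was -1.43 ± 0.32 against colon (adjusted p = 0.0226), lost without any of the 4 arrays compared (0.0659 to 0.101). Against liver it was -1.99 ± 0.32 (adjusted p = 0.00626; 0.0521 without microglia replicate 1).

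For members seen on neither microglia array only a nominal bound can be given. It is the mean of the other group over the lowest detected signal of any miRNA on each microglia array. Those lowest signals were log2 2.03 and 1.79 on replicates 1 and 2. The lowest mean of a member detected on both microglia arrays was 2.88. Each fold given as at least holds only if the undetected member lay below those lowest signals, which was not tested. Against colon, 20 members were seen on neither microglia array and 15 passed, with bounds of 1.91-fold to 8.02-fold. Among all 63 such miRNAs 69.8% passed, and since the rule needed detection elsewhere, this count says nothing of the members as a set. Against liver, 28 of 32 passed, with bounds of 1.46-fold to 14.2-fold over the 32, beside 81.5% of all 65. An undetected group stands at the floor with no spread, so these p-values may be too small. Leaving out 1 of its arrays leaves the other at the same floor.

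miR-5132-3p, whose hairpin lies in Irak1, a kinase gene of Toll-like and interleukin-1 receptor signalling, read 5.02 and 4.69 in colon and 4.20 and 4.80 in liver. It was at least 7.71-fold lower in microglia than in colon (limma adjusted p = 0.00222) and at least 6.02-fold lower than in liver (adjusted p = 0.00219). Its 5p arm was detected on all 6 arrays, at 3.09 and 3.58 in microglia, 3.85 and 3.99 in colon and 3.94 on each liver array, and passed in no comparison. Whether the arms differed in their response was not tested.

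miR-6401 read 4.94 and 4.89 in colon and 5.62 and 4.82 in liver, at least 8.02-fold above microglia in colon (limma adjusted p = 0.00244). miR-1966-5p (4.73 and 4.59 in colon) and miR-3113-5p (4.56 and 4.71) were at least 6.72-fold and 6.61-fold lower in microglia than in colon (adjusted p = 0.00222 and 0.00244). In liver miR-3113-5p read 5.04 and 5.71, at least 11.0-fold above microglia (adjusted p = 0.00126). The calls of miR-5132-3p, miR-6401, miR-1966-5p and miR-3113-5p were kept under all 5 other scalings and all 6 fits with 1 array left out. miR-6407 read 4.68 and 4.48 in colon, at least 6.36-fold above microglia (adjusted p = 0.0301), and was lost without any of the 4 arrays compared (0.169 to 0.190).

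The largest bounds were against liver. miR-3091-5p, from a hairpin in the ribosomal protein gene Rps21, read 4.72 and 6.75 in liver and 4.29 and 3.47 in colon, and was at least 14.2-fold lower in microglia than in liver (limma adjusted p = 0.00833). The 2 liver values were more than 2 log2 units apart. miR-3058-3p, from a hairpin in Nudt4, read 4.66 and 6.28 in liver and 4.45 and 3.34 in colon (at least 11.8-fold, adjusted p = 0.00767). miR-6238 read 5.78 and 5.05 in liver and 4.59 and 4.40 in colon (at least 11.3-fold, adjusted p = 0.00127). miR-1901 read 4.92 and 5.87 in liver and 4.27 on colon replicate 1 alone (at least 11.2-fold, adjusted p = 0.0206). Only miR-6238 of these 4 kept its call in every fit with 1 array left out. miR-3091-5p missed it without either microglia array or colon replicate 2 (0.0555 to 0.102), miR-3058-3p without either microglia array (0.0824 and 0.0967), and miR-1901 without any of the 4 arrays compared (0.111 to 0.161).

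The other members that passed as lower in microglia are given by their range. Against colon they were miR-6418-5p, miR-3470a, miR-6378, miR-1940, miR-3473a, miR-1949, miR-1231-5p and miR-5131, with log2 changes from -1.83 to -0.99. Against liver they were miR-6418-5p, miR-5131, miR-3096a-5p, miR-6360, miR-1231-5p, miR-3095-3p, miR-1940, miR-6378, miR-3470a, miR-3102-5p.2-5p, miR-1934-3p and miR-1982-5p, from -2.03 to -1.02. Of these, the calls of miR-1231-5p, miR-1940 and miR-5131 against liver were kept under all 5 other scalings and in all 6 fits with 1 array left out. Some members read nearly alike on all arrays. miR-1198-5p read 4.42 and 4.68 in microglia, 4.65 and 4.71 in colon and 4.28 and 4.67 in liver, and miR-3110-3p read 4.25 and 4.78, 4.64 and 4.63, and 4.53 and 4.61. Neither passed in any comparison, which does not show that their levels were equal.

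The reverse case was rare. miR-1843a-5p was not detected in colon and at least 2.95-fold higher in microglia (limma adjusted p = 0.0433), the 1 member of this kind, beside 85.0% passed of all 20 such miRNAs. The call was lost without any of the 4 arrays compared (0.183 to 0.215). Its hairpin lies in Dcaf5, overlapping the small Cajal body RNA gene Scarna3b, and their signals cannot be told apart here. No member was measured in microglia and undetected on both liver arrays, a class of 18 miRNAs of which 88.9% passed. A further 7 members against colon and 8 against liver were detected on 1 microglia array, and 3 passed in each comparison, miR-6354, miR-1945 and miR-1907. Among all miRNAs of this kind 44.1% passed as lower in microglia against colon and 37.1% against liver. miR-6354 read 3.02 on microglia replicate 1 and was not detected on replicate 2, against 6.50 and 5.90 in colon and 6.60 and 5.95 in liver. Its calls (limma adjusted p = 0.00683 and 0.00464) were lost against colon without either colon array (0.0718 and 0.0896) and against liver without liver replicate 1 (0.0536). With 1 array left out, miR-1945 kept its call in 1 of 6 fits against colon and 2 of 6 against liver (adjusted p 0.0759 to 0.183 where lost), and miR-1907 in 4 and 3 (0.0517 to 0.121).

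Between colon and liver macrophages 0 of 91 members measured in both passed limma's test in either direction, with 11 at an unadjusted p under 0.05 (8 lower and 3 higher in colon). Among all 313 measured in both, 2.56% passed as higher and 2.56% as lower in colon. The members' median change, colon minus liver, was -0.28, with 65 of 91 below 0, beside -0.02 for all 313 and 0.14 for the 207 numbered under 1000. That count rested on the liver replicates: without liver replicate 1 it was 19 (8 higher, 11 lower in colon), and without liver replicate 2 it was 6 (1 higher, 5 lower). It was 2 after median scaling and 1 each after quantile normalization and in the authors' values, all lower in colon.

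Of 5 members not detected in colon, 3 passed against liver, beside 50.0% of all 16 such miRNAs. All 5 entered the set through liver alone, which fixed their direction in advance. Their colon values stood at the floor with no spread, so these p-values may be too small. Leaving out 1 colon array leaves the other at the same floor. miR-6236 read 4.76 and 4.22 in liver and was not detected on the 4 other arrays (at least 6.55-fold, limma adjusted p = 0.00653; 0.0512 without colon replicate 2). miR-3102-3p read 4.65 and 4.30 in liver and was likewise not detected elsewhere (at least 6.50-fold, adjusted p = 0.00492), and kept its call in all 6 fits with 1 array left out. miR-3089-5p read 2.88 and 2.72 in liver, near the floor (at least 2.03-fold, adjusted p = 0.0464; 0.0604 and 0.0845 without either colon array). miR-3102-3p.2-3p was the 1 member measured in colon (2.61 and 3.08) and not in liver. It did not pass, beside 66.7% of all 18 such miRNAs. Of 13 members detected on 1 colon array, 1 passed, beside 10.0% of all 30 such miRNAs. It was miR-3107-5p (2.56 on replicate 1 against 4.15 and 4.46 in liver; limma adjusted p = 0.0315, lost in 5 of 6 fits with 1 array left out, 0.0549 to 0.126). The members not yet counted, miR-1249-3p against colon, miR-1843a-5p against liver, and miR-6348, miR-6407 and miR-1927 between colon and liver, were detected on 1 array of the second group and did not pass.

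Markers of other cells differed between the groups, as given above by array. Lymphocyte miR-150-5p read 8.97 and 7.09 in liver, 2.83 and 4.22 in colon, and was not detected in microglia. The 2 erythrocyte markers summed to 9.48 and 6.93 in microglia, 5.88 and 5.68 in colon and 7.43 and 7.30 in liver. The 2 oligodendrocyte markers summed to 7.57 and 7.62 in microglia, 6.28 and 6.29 in colon and 6.79 and 7.83 in liver. The summed levels of the epithelial, endothelial and smooth muscle lists were lower on both microglia arrays than on the colon arrays, although epithelial miR-203-3p was higher in microglia (5.62 and 5.58, against 4.83 and 3.81). The part of these cells in the differences of the members was not tested.

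The miR-3102 hairpin gave 4 members. miR-3102-5p was detected on all arrays, at 8.55 and 8.79 in microglia, 9.29 and 9.35 in colon and 9.35 and 11.02 in liver. miR-3102-5p.2-5p read 5.68 and 6.45, 7.03 and 6.92, and 7.30 and 7.10, and was lower in microglia than in liver (-1.14 ± 0.34, limma adjusted p = 0.04). That call was kept under 2 of the 5 other scalings and, of the 6 fits with 1 array left out, in that without microglia replicate 2 (0.0521 to 0.151 in the others). The strands of the other arm, miR-3102-3p and miR-3102-3p.2-3p, were detected only in liver and only in colon. Across all members, 64 have no arm in their name and 12 have the partner arm among the members, from miR-1839, miR-3058, miR-3096b, miR-3102, miR-5117 and miR-5132. For 34 the partner arm was on the array but was not detected on both arrays of any group, and for 4 it was not on the array.

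The members' mature strands were rich in G and C, a property the choice did not use. Their median G and C content was 60.9% (85 with a sequence), beside 47.7% among 220 detected miRNAs numbered under 1000 and 52.2% among 267 miRNAs numbered 1000 or above outside the rule. Members ran from 34.8% (miR-1187) to 94.7% (miR-2861 and miR-6538), with a median length of 22 bases in the members and in both other sets. A run of 4 G, GGGG on the mature strand, was found in 24.7% of the members, against 11.8% and 5.62% of the other sets and 11.2% of all 1679 entries. GGG was in 58.8%, against 31.4%, 22.1% and 30.6%. A GGGG match contains GGG, so the shares overlap. The sequences below show the run, in capitals, in 3 of the bright members.
miR-2861: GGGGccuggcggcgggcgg
miR-3102-5p: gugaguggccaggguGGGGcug
miR-1224-5p: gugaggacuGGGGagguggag
miR-2861 read 9.40 and 9.54 in microglia, 9.26 and 9.11 in colon and 9.83 and 11.08 in liver.

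**Figure D4:**
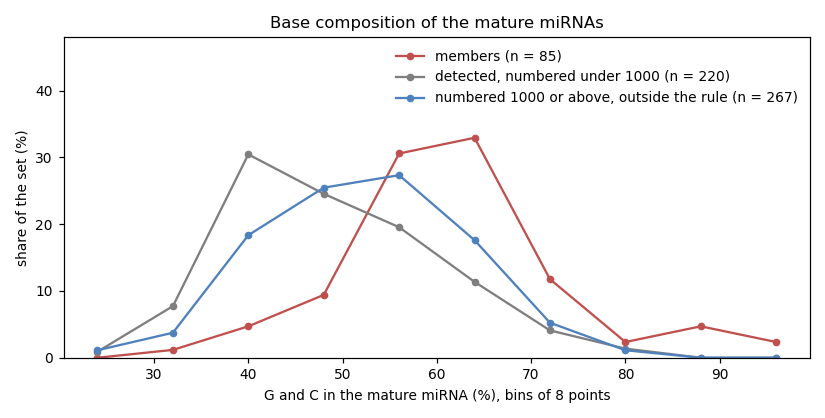
Share of each set (y axis, percent) by G and C content of the mature strand (x axis, percent, bins of 8 points), for 85 members (red), 220 detected miRNAs numbered under 1000 (grey) and 267 miRNAs numbered 1000 or above outside the rule (blue). The median of the members lies at 60.9%, to the right of 47.7% and 52.2%.

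Replicates of members differed most in liver. Over the 68 members detected on all arrays, liver replicate 1 minus 2 ran from -1.67 (miR-3102-5p) to 1.97 (miR-5099), and 14 members differed by more than 1 log2 unit. Microglia replicates ran from -1.50 (miR-5130) to 1.94 (miR-5128), with 9 over 1, and colon replicates from -0.90 (miR-5097) to 2.27 (miR-3473e), with 3 over 1. Across the 51 of them with a sequence, the liver replicate difference was related to G and C content at Pearson's r = -0.42 (Spearman's coefficient -0.29). In microglia r was -0.10 and in colon 0.02. For 141 detected miRNAs numbered under 1000, r in liver was 0.11. The group difference colon minus liver had r = -0.53 (Spearman's coefficient -0.42) with G and C over the same 51 members, and it uses the same liver arrays. Microglia minus liver had r = -0.31. The 141 lower numbers gave -0.20 and -0.19 for these group differences, and whether the sets differ was not tested. These are descriptions across miRNAs that share 6 arrays, and no p is given.

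The 3 colon differences over 1 log2 unit belonged to members of the set with the shared 9-base stretch. miR-3473e read 8.05 and 5.77 in colon, 6.47 and 5.68 in microglia and 7.60 and 6.72 in liver. miR-3473a read 8.26 and 7.44 in colon, 6.85 and 6.29 in microglia and 7.59 on both liver arrays. All 4, miR-3473b and miR-5128 included, read higher on replicate 1 than on replicate 2 in microglia and in colon. Only miR-3473a passed a test, lower in microglia than in colon (-1.28 ± 0.39, limma adjusted p = 0.0464), lost in all 6 fits with 1 array left out (0.0685 to 0.186). miR-6368 read 8.36 and 8.65 in microglia, 8.10 and 8.15 in colon and 8.20 and 8.61 in liver, a range of under 1 log2 unit. miR-6405, which shares its seed, was detected at 4.52 on microglia replicate 2, 3.79 on colon replicate 1, and 3.98 and 4.01 in liver.

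**Figure D5:**
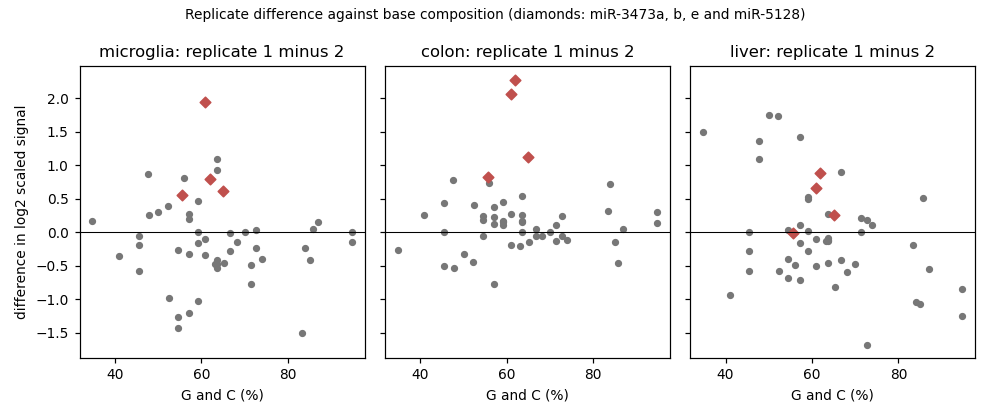
Difference of replicate 1 minus replicate 2 in log2 scaled signal (y axis) against G and C content of the mature strand (x axis, percent) for 51 members detected on all arrays, in microglia, colon and liver. In liver the points fall from left to right (r = -0.42), and in microglia and colon the 4 diamonds, the members with the shared stretch, lie above 0.

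Of the 85 members with a sequence, 60 have a locus within the span of a protein-coding gene, on the same strand in 40 and on the opposite strand only in 8. For the rest the strand of the gene was not given in the sources used. Tpx2 (miR-5622-3p), Boc (miR-3081-5p), Syap1 (miR-3473a) and Ccdc162 (miR-3473b) are among these. Whether a hairpin lies in an exon or an intron was not analysed here. In GRCm38.p6 miR-5622-3p lies at chr2:152865105-152865126 (plus strand), miR-1306-3p at chr16:18284248-18284268 (minus), miR-5119 at chr11:98262638-98262656 (plus), miR-1839-5p at chr7:81529919-81529940 (plus), miR-5121 at chr7:45126925-45126945 (minus) and miR-5132-3p at chrX:74023534-74023554 (minus). The 4 strands with the common stretch come from 4 chromosomes: miR-3473a at chrX:162874920-162874937 (minus) in Syap1, miR-3473b at chr10:41670774-41670793 (plus) in Ccdc162, miR-3473e at chr5:31667296-31667316 (minus) in Rbks and miR-5128 at chr2:37688212-37688234 (minus) in Strbp. miR-1187 at chr5:82798964-82798986 (minus) and miR-6401 at chr7:139779085-139779106 (plus) lie in no gene of the table.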

How the data were processed

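Signals of 6 single-colour Agilent miRNA arrays were analysed, 2 per group. Per the file headers, the authors deposited for each array 1 gene signal per miRNA, a linear intensity with its error and a detection flag, in which 0.1 stands for an undetected miRNA. The scanner software was Agilent Feature Extraction 9.1, per the submitters' processing notes. The authors also deposited a table of log2 values for 595 miRNAs, which holds all 114 members. Its normalization is not given in the sources used, each column has a median of 3.72, and it served as an alternative only (r = 0.992 with the signals used). No background signal, slide or scan date was used, so neither a normexp correction nor a slide block was run.

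From the intensities, 21 control rows were left out, each array was scaled to the 75th percentile of the 248 miRNAs found on all arrays, values under 3.12 scaled units (log2 1.64) were set to that floor, and log2 was taken. limma 3.58.1 (R 4.3.3) compared the groups in 1 model of 3 group means over 6 arrays with eBayes, 2-sided. P-values were adjusted by the Benjamini-Hochberg method over the miRNAs flagged on both arrays of either group compared, not over the members alone, and the threshold was 0.05. Counts of members cover those detected on all 4 arrays compared. A member undetected on both arrays of a group has a nominal bound instead. It is the brighter group's mean over the mean lowest detected signal of the dimmer group's arrays. This holds only if the member lay below that signal. The code was tested on simulated data.

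Members, marker lists and tests were chosen with earlier results of these data known. Values on every array were given for up to 8 members with the largest changes that passed in a comparison, up to 5 bounds, the 6 brightest members and those with a shared seed or stretch. The members higher in microglia, partner arms, the UG set, miR-2137, miR-2861, the members just at the floor and those on 1 array were added after their values were seen. Alternatives were 5 other scalings or sources of values, other floors, other detection filters, a replicate block, a fit of 4 arrays only and each array left out in turn. Sequences, loci and host genes came from RefSeq (GRCm38.p6), with 85 members matched by miRNA name. Some RefSeq entries were not used, among them names with more than 1 sequence.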

Additional observations from a re-analysis of the deposited data

How the results depend on the processing

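All 109 passed results of single members kept their direction in every alternative run, and 30 of them kept the call under all 5 other scalings and in all 6 fits with 1 array left out. Of the 109, 26 against colon and 29 against liver were measured in both groups. Most others had a group set wholly to the floor, which largely fixed their direction in advance. Without 1 array such a group stays at the floor. Of the 30, those measured in both groups were miR-1306-3p and miR-5622-3p against colon and liver. The rest measured in both were miR-1231-5p, miR-1940, miR-3960, miR-5131 and miR-6538, against liver. Counts of passed members measured in both groups moved more than these single results. Against colon the count of 26 became 16 with median scaling, 16 with the authors' values, 16 with quantile normalization and 5 with no detection filter, and 2 to 30 with 1 array left out. Against liver the count of 29 became 13 with no detection filter and 14 to 31 with 1 array left out. For colon against liver, 0 became 2 with median scaling, 1 with the authors' values, 1 with quantile normalization, 3 when testing was limited to miRNAs found on every array, and 0 to 19 with 1 array left out. The cause of these shifts was not tested, except that the no-filter fit adjusts over more miRNAs and a left-out array leaves fewer samples, with the lone replicate assumed to vary like the other groups.

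The labels do not say that replicate numbers pair the samples. Deviations of same-numbered arrays correlated at 0.21 (microglia and colon), 0.07 (microglia and liver) and -0.09 (colon and liver) over 248 miRNAs. With 2 arrays per group, these values cannot decide whether the numbers pair the samples. With the replicate block the counts were 25, 25 and 0, and 14 of the 109 single calls were lost. Scaling to the 75th percentile over all miRNAs was not run, because on microglia replicate 1 that percentile is the placeholder for undetected miRNAs. Precision is limited by 2 arrays per group and, for members near the floor, by detection.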
